A study of Mus musculus with 18 samples.

Results

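The genes described here encode the ESCRT complexes, the retromer and its sorting nexins, the HOPS and CORVET tethers and the Rab5 effectors of the early endosome. They were taken from a list of 52 gene symbols grouped by the role of the protein, and chosen with earlier results of these data known, though the list applies no threshold on a measured value. Of these, 51 had a row among the 52433 gene symbols analysed, all 51 passed the filter on low counts, and 1 listed ESCRT-I subunit was not analysed here. RNA was measured by polyA RNA-seq in 1 hemibrain from each of 18 mice aged 12 months. The mice were targeted-replacement animals of the C57bl/6 strain, in which a human APOE allele takes the place of the mouse Apoe gene. One group carried 2 copies of APOE2 (APOE2/APOE2), one 2 copies of APOE4 (APOE4/APOE4) and one 2 copies of APOE3 (APOE3/APOE3), with 6 mice per genotype, 3 females and 3 males in each. All groups therefore carry a human allele, and no mouse with its own Apoe gene was analysed here. A hemibrain mixes every cell type of the brain.

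Endosomes sort membrane proteins that a cell has taken up. The ESCRT complexes gather ubiquitin-tagged proteins and bud them into vesicles inside the endosome, on the way to the lysosome or to release as exosomes, whereas the retromer and sorting nexins return receptors to the Golgi or the cell surface. CORVET and HOPS hold endosomes and lysosomes together before they fuse, and Rab5 effectors do the same for early endosomes. In neurons these routes handle the amyloid precursor protein and its sorting receptors, and the title of the study concerns APOE2, endosome function in aging neurons and exosome secretion.

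Library totals ran from 49545646 to 59394503 counts in APOE2, from 48841442 to 52761314 in APOE4 and from 43818967 to 50382463 in APOE3. The neuronal, astrocyte, oligodendrocyte and microglial markers of brain were present in every library, and 4 liver markers summed to 0.606 CPM (counts scaled to library size, with TMM factors) at most. The 8 choroid plexus markers, summed in each mouse, had medians of 751 CPM in APOE2, 722 CPM in APOE4 and 626 CPM in APOE3. These sums ran from 420 to 1164 CPM in APOE2, from 445 to 804 CPM in APOE4 and from 557 to 786 CPM in APOE3. The 5 blood markers, summed likewise, had medians of 87.9, 63.6 and 72.3 CPM in the same order. Their sums ran from 63.4 to 206 CPM in APOE2, from 47.0 to 81.2 CPM in APOE4 and from 55.4 to 105 CPM in APOE3. The 8 oligodendrocyte markers, summed in each mouse, had medians of 6262 CPM in APOE2, 6210 CPM in APOE4 and 5524 CPM in APOE3. Pituitary markers summed to 172 CPM in 1 APOE4 library, against a median sum of 9.13 CPM in that genotype. Their part in the results below was not tested. Titles of the APOE2 mice carry a letter c or none and those of the other mice the letters d to g, which the labels do not explain, so anything that goes with these letters cannot be told apart from the APOE2 genotype. Among the APOE3 and APOE4 mice, e is carried by males alone and d, f and g by females alone. Anything that goes with the letters cannot be told apart from sex there.

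The levels of these genes differed far more between genes than between genotypes. Levels per transcript length were given in TPM (counts scaled to the length of the annotated exons and to library size). With the 51 genes ranked by their mean over all mice, the middle gene, Vps16, had 68.2 TPM. The ESCRT-III subunit Chmp4b, which forms the filaments that pinch off vesicles, stood highest with 362 ± 10.8 TPM in APOE2, 369 ± 7.63 TPM in APOE4 and 371 ± 14.2 TPM in APOE3 (SD, n = 6 each). The sorting nexin Snx3, a cargo adaptor of the retromer, came next with 337 ± 17.99 TPM in APOE2, 336 ± 13.0 TPM in APOE4 and 334 ± 13.6 TPM in APOE3. These levels of Chmp4b and Snx3 overlap between the genotypes. The Rab5 effector Rabep2 was among the lowest, with 9.24 ± 1.04 TPM in APOE2, 9.86 ± 1.17 TPM in APOE4 and 10.4 ± 0.897 TPM in APOE3. The ESCRT-II subunit Vps25 was listed at 1.94 ± 0.439 TPM in APOE2, 1.66 ± 0.255 TPM in APOE4 and 1.94 ± 0.411 TPM in APOE3, and this level is uncertain. Of its exon bases, 67.2% also belong to Ramp2 on the same strand, and it had 240 reads over the APOE2 mice, 195 over the APOE4 mice and 212 over the APOE3 mice, whereas every other gene of the set had at least 515 reads in each library.

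**Figure D1:**
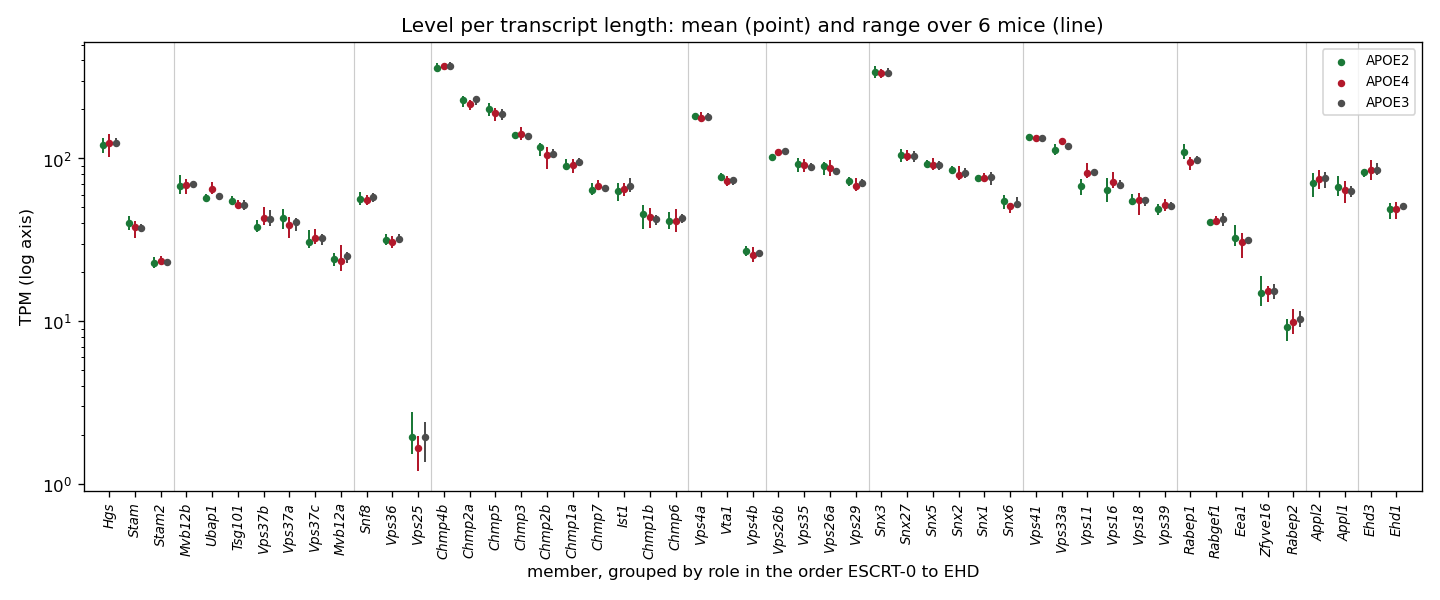
TPM of the 51 genes on a log axis, grouped by role from ESCRT-0 on the left to the EHD proteins on the right, with points for the mean and lines for the range over the 6 mice of APOE2 (green), APOE4 (red) and APOE3 (grey). Chmp4b and Snx3 stand highest, Vps25 stands lowest, and the genotypes of most genes lie on top of each other.

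A gene was called at an edgeR quasi-likelihood p under 0.05 after Benjamini-Hochberg adjustment over all 18891 genes tested. In APOE2 against APOE3, 2 of the 51 genes were called (3.92%), where 3.91% of all genes tested were called, 1.9% higher and 2.01% lower. Rabep1, a Rab5 effector, rose in APOE2, and Vps11, a core subunit of HOPS and CORVET, fell. In APOE4 against APOE3, edgeR called 0 of the 51, where 0.773% of all genes were called. There, 3 of the set, Ubap1, Chmp2a and Vps33a, had an unadjusted p under 0.05, as did 8.78% of all genes. DESeq2 called Ubap1 and Vps33a, along with 1.44% of all genes, and limma voom called 0 of the set and 138 genes in all. In APOE2 against APOE4, 4 of the 51 were called (7.84%), where 6.53% of all genes were called, 3.01% higher and 3.52% lower. Rabep1 was again higher in APOE2, while Vps11, the fusion regulator Vps33a and the ESCRT-I subunit Ubap1 were lower. The comparisons of APOE2 with APOE3 and with APOE4 share the APOE2 mice, so their values are not independent of each other. Single libraries moved these counts: without APOE2 replicate 6, 4 genes of the set were called in APOE2 against APOE3, where the calls over all genes were 1026 in place of 738. Without APOE4 replicate 5, 11 of the set were called in APOE2 against APOE4, where the calls over all genes were 1903 in place of 1233. Without APOE2 replicate 1 or 2 or APOE3 replicate 4 or 5, the count in APOE2 against APOE3 was 1, with 574 to 626 calls over all genes. In hemibrain RNA, fewer cells of a type and less RNA per cell cannot be told apart.

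Most of the set differed little in any comparison. The median log2 fold change over the 51 genes was 0.02 in APOE2 against APOE3, where it was 0.00 over all genes. There, 30 genes had a positive value (58.8%, against 51.2% of all genes). The median was -0.00 in APOE4 against APOE3, against 0.00 over all genes, with 24 positive values (47.1%, against 52.0% of all genes). It was 0.04 in APOE2 against APOE4, against 0.00 over all genes, with 35 positive values (68.6%, against 50.8% of all genes). With Vps25 left aside, the 95% intervals of the log2 fold changes that were not called lay between -0.28 (Rabep2) and 0.30 (Chmp1b) in APOE2 against APOE3. They lay between -0.21 (Rabep2) and 0.23 (Ubap1) in APOE4 against APOE3, and between -0.27 (Vps37b) and 0.32 (Chmp2b) in APOE2 against APOE4. Values repeated closely between mice: the median SD of log2 CPM within a genotype and sex was 0.08 over the 51 genes and 0.13 over all genes tested. These are not at equal depth. Apart from Vps25, genes of the set had at least 515 reads in each library, while the filter's minimum count was 10. Genes of equal depth were not compared. At an unadjusted p under 0.05 there were 9 of the 51 in APOE2 against APOE3 (17.6%, against 16.8% of all genes) and 17 in APOE2 against APOE4 (33.3%, against 20.2% of all genes), 11 of them higher in APOE2 and 6 lower, where 10.1% of all genes were higher and 10.1% lower.

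**Figure D2:**
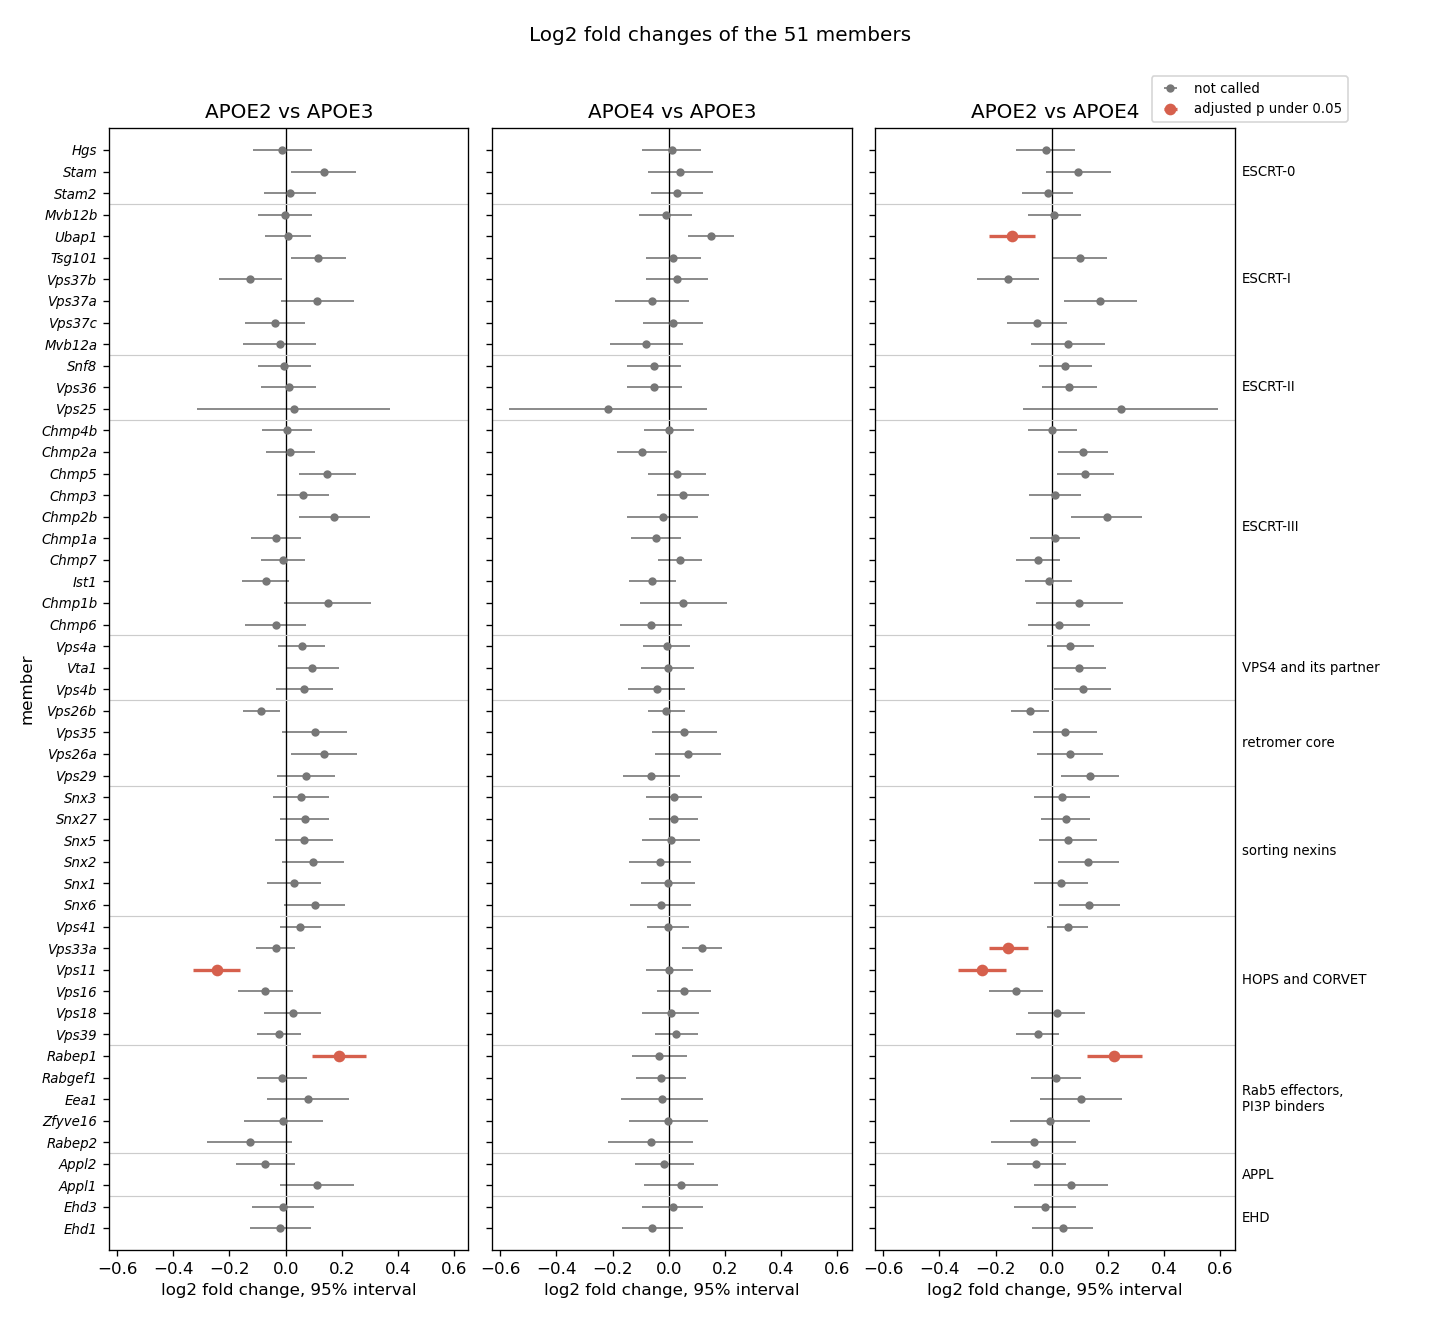
Log2 fold change with its 95% interval (edgeR) for each of the 51 genes in APOE2 vs APOE3, APOE4 vs APOE3 and APOE2 vs APOE4, ordered by role and, within a role, by TPM. Red marks the genes called at an adjusted p under 0.05, which are Vps11 and Rabep1 on the left, none in the middle, and Ubap1, Vps33a, Vps11 and Rabep1 on the right.

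ESCRT-0 captures ubiquitin-tagged cargo at the endosome membrane, and none of its 3 genes was called in any genotype pair. Hgs, the subunit that binds both ubiquitin and the endosome lipid PI3P, averaged 86.4 ± 3.68 CPM in APOE2, 87.8 ± 8.06 CPM in APOE4 and 87.1 ± 2.01 CPM in APOE3. Its partner Stam averaged 80.2 ± 6.34 CPM in APOE2, 75.2 ± 6.88 CPM in APOE4 and 72.9 ± 3.17 CPM in APOE3 (APOE2 against APOE3, log2 fold change 0.14, SE 0.06, edgeR adjusted p = 0.212). Stam2, which can take the place of Stam, averaged 32.6 ± 1.79 CPM in APOE2, 33.0 ± 1.71 CPM in APOE4 and 32.3 ± 0.600 CPM in APOE3.

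Among the 7 ESCRT-I genes, which pass cargo on from ESCRT-0, Ubap1 stood apart in APOE4. Ubap1, a subunit of the ESCRT-I complex that serves endosomes, had a lowest, median and highest value of 46.8, 49.4 and 51.6 CPM in APOE2 mice. The same values were 52.3, 53.9 and 58.2 CPM in APOE4 mice and 46.7, 49.0 and 51.9 CPM in APOE3 mice. Every APOE4 mouse lay above every mouse of both other genotypes, and the APOE2 and APOE3 mice overlapped over nearly their whole range. In APOE2 against APOE4 Ubap1 fell, with a log2 fold change of -0.14 (SE 0.04, edgeR adjusted p = 0.0290). In APOE4 against APOE3 the log2 fold change was 0.15 (SE 0.04) with an unadjusted edgeR p of 9.17e-04 and an adjusted p = 0.0883, while DESeq2 called it with an adjusted p = 0.0211. The call in APOE2 against APOE4 was lost with no filter on low counts (edgeR adjusted p = 0.108), in a fit of the compared genotypes alone (0.0792) and within each sex. It was also lost without APOE2 replicate 1 (0.0707), 3 (0.0537), 4 (0.0526) or 6 (0.0590) or APOE4 replicate 1 (0.0532), 2 (0.0597) or 4 (0.0765), with log2 fold changes from -0.15 to -0.12 over all libraries left out in turn.

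The other ESCRT-I genes were not called. Tsg101, the subunit that binds ubiquitin and viral budding motifs, averaged 35.7 ± 2.21 CPM in APOE2, 33.3 ± 1.32 CPM in APOE4 and 33.0 ± 1.69 CPM in APOE3. Vps37a and Vps37b, alternative subunits of the complex, had opposite signs in APOE2 against APOE4. The log2 fold change of Vps37a was 0.17 (SE 0.06, edgeR adjusted p = 0.111) and that of Vps37b was -0.16 (SE 0.05, adjusted p = 0.0915). The count of Vps37b is uncertain, since 42.5% of its exon bases lie opposite exons of Hip1r and Gm37939, and whether reads were counted by strand is not stated in the sources at hand. Exons on the opposite strand also overlap 24.0% of the exon bases of Chmp1b, 14.3% of those of Rabep2 and 13.5% of those of Vta1. Near-identical copies elsewhere in the genome took few reads where they had a row of counts, which a copy of Chmp3 and a copy of Vps4b had not. The most were on Tsg101-ps, with 94 reads in APOE2, 106 in APOE4 and 99 in APOE3, where Tsg101 had 11342, 10176 and 9372 in the same order. Mvb12b, the ESCRT-I gene of highest TPM, and Mvb12a, the one of lowest TPM, had log2 fold changes of 0.01 and 0.06 in that comparison (SE 0.05 and 0.06), and that of Vps37c was -0.05 (SE 0.05).

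The ESCRT-II genes, which link ESCRT-I to ESCRT-III, showed no call. Snf8 averaged 35.96 ± 2.52 CPM in APOE2, 34.8 ± 1.35 CPM in APOE4 and 36.1 ± 0.824 CPM in APOE3. Vps36, which binds ubiquitin, averaged 28.0 ± 1.304 CPM in APOE2, 26.9 ± 1.72 CPM in APOE4 and 27.8 ± 1.01 CPM in APOE3. Both genes overlapped between all genotypes.

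ESCRT-III is the filament that cuts the vesicle neck. With all 18 libraries and the filter on low counts, edgeR called 0 of its 10 genes in any genotype pair. At an unadjusted p under 0.05 there were 2 in APOE2 against APOE3 (Chmp2b and Chmp5), 1 in APOE4 against APOE3 (Chmp2a) and 3 in APOE2 against APOE4 (Chmp2a, Chmp2b and Chmp5), where 16.8%, 8.78% and 20.2% of all genes had one in these comparisons. Their summed level was 1351 ± 17.5 TPM in APOE2, 1327 ± 20.4 TPM in APOE4 and 1347 ± 20.7 TPM in APOE3. Chmp2b, a filament subunit whose human mutations cause frontotemporal dementia, had a lowest, median and highest value of 46.6, 54.8 and 58.7 CPM in APOE2 mice. These were 39.1, 48.0 and 52.9 CPM in APOE4 mice and 46.04, 48.2 and 50.3 CPM in APOE3 mice. The median was highest in APOE2 and the ranges of all genotypes overlapped. The log2 fold change of Chmp2b was 0.17 in APOE2 against APOE3 (SE 0.06, edgeR adjusted p = 0.132) and 0.20 in APOE2 against APOE4 (SE 0.06, adjusted p = 0.0567), and DESeq2, which called 8.15% of all genes in that comparison, called the difference from APOE4 with an adjusted p = 0.0391. There, edgeR called Chmp2b with no filter on low counts (adjusted p = 0.0220, with 1254 calls over all genes). It also did so without APOE2 replicate 6 (0.0160) or APOE4 replicate 2 (0.0488) or 5 (0.0112). With no filter or without APOE4 replicate 2, the count for the set stayed at 4, with Chmp2b in place of Ubap1. Chmp5, a regulator of the filament, averaged 73.3 ± 6.50 CPM in APOE2, 67.4 ± 4.98 CPM in APOE4 and 66.0 ± 2.80 CPM in APOE3 (APOE2 against APOE3, adjusted p = 0.105). Chmp2a, the paralog of Chmp2b, averaged 63.3 ± 3.59 CPM in APOE2, 58.6 ± 2.21 CPM in APOE4 and 62.6 ± 2.37 CPM in APOE3. Chmp6, which nucleates the filament on ESCRT-II, averaged 23.9 ± 1.66 CPM in APOE2, 23.5 ± 2.13 CPM in APOE4 and 24.5 ± 1.05 CPM in APOE3. The log2 fold changes of the other filament genes in APOE2 against APOE3 lay between -0.07 (Ist1) and 0.15 (Chmp1b), with Chmp1a, Chmp3, Chmp4b and Chmp7 between them.

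The disassembly factors of the filament gave no call. The AAA ATPase Vps4a averaged 110.2 ± 5.08 CPM in APOE2, 105 ± 4.22 CPM in APOE4 and 106 ± 3.99 CPM in APOE3. Its paralog Vps4b averaged 57.4 ± 2.73 CPM in APOE2, 53.2 ± 4.30 CPM in APOE4 and 54.8 ± 1.14 CPM in APOE3. Vta1, which activates both ATPases, averaged 41.5 ± 2.72 CPM in APOE2, 38.8 ± 1.71 CPM in APOE4 and 38.9 ± 1.11 CPM in APOE3. All 3 had positive log2 fold changes in APOE2 against both other genotypes, and none passed the adjusted test. Over all genes, 51.2% of the values were positive against APOE3 and 50.8% against APOE4.

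The retromer core joins Vps35 and Vps29 to either Vps26a or Vps26b. Vps26b, the form enriched in brain, had a lowest, median and highest value of 121.6, 124.3 and 127.82 CPM in APOE2 mice, 128.5, 130.3 and 137.1 CPM in APOE4 mice and 127.84, 133.0 and 135.3 CPM in APOE3 mice. Every APOE2 mouse lay below every mouse of the other genotypes, though the highest APOE2 value and the lowest APOE3 value nearly touched. Groups that do not overlap in this direction were found for 2 of the 51 genes in APOE2 against APOE3, Vps26b and Vps11, where 1.8% of all genes did so. In APOE2 against APOE4 there were 4, Ubap1, Vps26b, Vps11 and Vps33a, where 1.93% of all genes did so. No gene of the set had every APOE2 mouse above the other genotype, where 1.43% of all genes did so against APOE3 and 1.55% against APOE4. The set varied less between mice than all genes did (median SD of log2 CPM 0.08 against 0.13). Genes of equal depth or spread were not compared. The log2 fold change of Vps26b was -0.09 in APOE2 against APOE3 (SE 0.03, edgeR adjusted p = 0.164; DESeq2 adjusted p = 0.0244, where DESeq2 called 4.98% of all genes) and -0.08 in APOE2 against APOE4 (SE 0.03, edgeR adjusted p = 0.173).

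In both comparisons of APOE2, the other core subunits had fold changes of the opposite sign and were not called. Vps26a averaged 61.5 ± 4.94 CPM in APOE2, 58.7 ± 4.99 CPM in APOE4 and 55.9 ± 2.08 CPM in APOE3 (APOE2 against APOE3, log2 fold change 0.14, SE 0.06, edgeR adjusted p = 0.216). As a share of the summed TPM of the pair, Vps26a took 46.7 ± 1.88% in APOE2, 44.3 ± 1.98% in APOE4 and 43.0 ± 0.415% in APOE3, and the ranges of all genotypes overlapped. The same overlap held for each of the 12 pairs of paralogs in the set. Vps35, the scaffold whose human mutations cause Parkinson's disease, averaged 198 ± 15.5 CPM in APOE2, 192 ± 16.4 CPM in APOE4 and 184 ± 8.23 CPM in APOE3. Vps29 averaged 107 ± 6.82 CPM in APOE2, 97.4 ± 6.41 CPM in APOE4 and 102 ± 4.56 CPM in APOE3 (APOE2 against APOE4, adjusted p = 0.117).

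The 6 sorting nexins, which bend the membrane or select cargo for retrieval, had positive log2 fold changes in APOE2 against APOE3 and against APOE4, and none was called. Their medians were 0.07 and 0.05 on the log2 scale. Over all genes, 51.2% and 50.8% of the values were positive in these comparisons. Of 21 other sorting nexins outside the set, 12 had a positive value in APOE2 against APOE3 and 8 in APOE2 against APOE4. The medians of these others were 0.03 and -0.02. Snx6, a membrane-bending partner of the retromer, averaged 39.4 ± 3.31 CPM in APOE2, 35.9 ± 1.93 CPM in APOE4 and 36.6 ± 1.70 CPM in APOE3 (APOE2 against APOE4, edgeR adjusted p = 0.145). Snx2, of the same class, averaged 54.9 ± 3.27 CPM in APOE2, 50.2 ± 4.08 CPM in APOE4 and 51.3 ± 2.30 CPM in APOE3 (APOE2 against APOE4, adjusted p = 0.160). For Snx27, which recycles receptors to the surface, the log2 fold change in APOE2 against APOE3 was 0.07 (SE 0.04), and those of Snx1, Snx3 and Snx5 lay between 0.03 and 0.07.

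HOPS and CORVET share the subunits Vps11, Vps16, Vps18 and Vps33a, while Vps39 and Vps41 belong to HOPS. Vps11, part of the shared core, carried the change of smallest p in the set. Its lowest, median and highest values were 74.2, 79.2 and 89.1 CPM in APOE2 mice, 89.2, 94.2 and 105 CPM in APOE4 mice and 92.2, 94.7 and 97.4 CPM in APOE3 mice. Every APOE2 mouse lay below every mouse of the other genotypes, which overlapped each other. Vps11 fell in APOE2 against APOE3 with a log2 fold change of -0.25 (SE 0.04, edgeR adjusted p = 0.000306) and in APOE2 against APOE4 with -0.25 (SE 0.04, adjusted p = 0.000221), and in APOE4 against APOE3 it was 0.00 (SE 0.04). Both calls held with each library left out in turn, where the log2 fold change ran from -0.27 to -0.23 in each comparison.

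Vps33a, the subunit that guides SNARE assembly for fusion, was highest in APOE4. Its lowest, median and highest values were 124, 129.6 and 135 CPM in APOE2 mice, 141, 143 and 149 CPM in APOE4 mice and 127, 133 and 136 CPM in APOE3 mice. Every APOE4 mouse lay above every mouse of both other genotypes, and the APOE2 and APOE3 mice overlapped. Vps33a fell in APOE2 against APOE4 with a log2 fold change of -0.15 (SE 0.03, edgeR adjusted p = 0.00491). In APOE4 against APOE3 the log2 fold change was 0.12 (SE 0.03), with an edgeR adjusted p = 0.135 and a DESeq2 adjusted p = 0.0220. Ubap1 and Vps33a were the 2 genes of the 51 with every APOE4 mouse above every APOE3 mouse, where 0.715% of all genes did so. Genes of equal depth or spread were not compared here either.

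The other tether subunits were not called. Vps16, which binds Vps33a directly, averaged 57.1 ± 4.42 CPM in APOE2, 62.3 ± 3.95 CPM in APOE4 and 60.0 ± 1.89 CPM in APOE3 (APOE2 against APOE4, log2 fold change -0.13, SE 0.05, edgeR adjusted p = 0.114). Vps41 averaged 218 ± 7.36 CPM in APOE2, 209 ± 6.30 CPM in APOE4 and 209.95 ± 6.58 CPM in APOE3, and Vps39 averaged 101 ± 2.60, 104 ± 4.59 and 102 ± 2.99 CPM in the same order. The summed level of the 6 genes was 484 ± 21.3 TPM in APOE2, 521 ± 15.7 TPM in APOE4 and 511 ± 7.86 TPM in APOE3.

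Promoters are shown for Vps33a and Ubap1, the called genes for which a window was at hand, and for Vps16 and Vps26a, which hold the same motif as Vps33a. The windows come from RefSeq on GRCm38.p6 and run from 250 bases before to 50 bases after a gene's start, on the strand of the gene. Capitals mark CACGTG, the E-box core, together with a GT before it and an AC after it where both are present, which gives the palindrome known from promoters of lysosomal genes that the factor TFEB binds. Both motifs read the same on both strands, and the longer one contains the shorter. The windows are Vps33a at chr5:123572966-123573265 (minus strand), Ubap1 at chr4:41348746-41349045 (plus strand), Vps16 at chr2:130424070-130424369 (plus strand) and Vps26a at chr10:62486756-62487055 (minus strand). A further window of Vps26a, at chr10:62486549-62486848, also held the longer motif and is not shown.
Vps33a: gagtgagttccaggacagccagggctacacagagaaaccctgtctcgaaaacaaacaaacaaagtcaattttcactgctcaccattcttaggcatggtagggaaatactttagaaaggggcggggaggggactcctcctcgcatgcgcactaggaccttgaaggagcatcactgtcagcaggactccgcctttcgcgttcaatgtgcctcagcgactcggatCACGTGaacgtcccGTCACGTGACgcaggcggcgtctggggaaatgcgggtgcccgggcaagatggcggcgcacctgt
Ubap1: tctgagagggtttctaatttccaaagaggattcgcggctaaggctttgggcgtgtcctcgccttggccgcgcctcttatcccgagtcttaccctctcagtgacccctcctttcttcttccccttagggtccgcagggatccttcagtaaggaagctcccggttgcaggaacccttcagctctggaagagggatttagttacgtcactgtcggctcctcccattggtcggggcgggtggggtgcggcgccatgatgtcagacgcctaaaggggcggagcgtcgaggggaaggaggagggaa
Vps16: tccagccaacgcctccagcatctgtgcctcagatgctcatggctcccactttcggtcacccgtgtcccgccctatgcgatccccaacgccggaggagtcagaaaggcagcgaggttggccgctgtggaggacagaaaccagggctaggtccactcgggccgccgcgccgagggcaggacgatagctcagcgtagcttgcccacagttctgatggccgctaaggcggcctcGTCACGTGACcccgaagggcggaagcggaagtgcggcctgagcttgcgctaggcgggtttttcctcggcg
Vps26a: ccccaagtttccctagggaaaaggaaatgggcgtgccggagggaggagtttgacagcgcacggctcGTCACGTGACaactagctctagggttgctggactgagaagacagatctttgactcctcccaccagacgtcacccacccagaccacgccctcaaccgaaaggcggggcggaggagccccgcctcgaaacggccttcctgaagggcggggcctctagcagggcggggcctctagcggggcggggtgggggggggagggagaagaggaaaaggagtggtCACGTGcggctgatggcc
Of the 37 genes of the set with a window, 3 held the longer motif (8.11%), namely Vps16, Vps26a and Vps33a, compared with 100 of all 27025 genes with a window (0.370%). The shorter CACGTG was in 4 of the 37 (10.8%), with Snx5 added, and in 8.09% of all genes. Some genes have several windows, and 107 of all 32851 windows held the longer motif (0.326%). The Ubap1 window held neither motif. Among the genes with the longer motif, the log2 fold change in APOE2 against APOE4 was -0.15 for Vps33a, -0.13 for Vps16 and 0.07 for Vps26a.

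The early endosome tethers were led by Rabep1, which encodes rabaptin-5, a Rab5 effector that works with the Rab5 activator Rabgef1. Its lowest, median and highest values were 159.9, 177 and 195 CPM in APOE2 mice, 137, 154 and 166 CPM in APOE4 mice and 151, 155 and 165 CPM in APOE3 mice. The median was highest in APOE2, and the lowest APOE2 mouse, a male, lay within the range of the other genotypes. Rabep1 rose in APOE2 against APOE3 with a log2 fold change of 0.19 (SE 0.05, edgeR adjusted p = 0.0180) and in APOE2 against APOE4 with 0.22 (SE 0.05, adjusted p = 0.00320). The value in APOE2 against APOE3 went to 0.11 with 1 surrogate variable in the fit (adjusted p = 0.244), and the call was lost without APOE2 replicate 1 (0.0545), APOE2 replicate 2 (0.0547), APOE3 replicate 4 (0.0540) or APOE3 replicate 5 (0.0649). Against APOE4 the call in APOE2 held with each library left out.

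**Figure D3:**
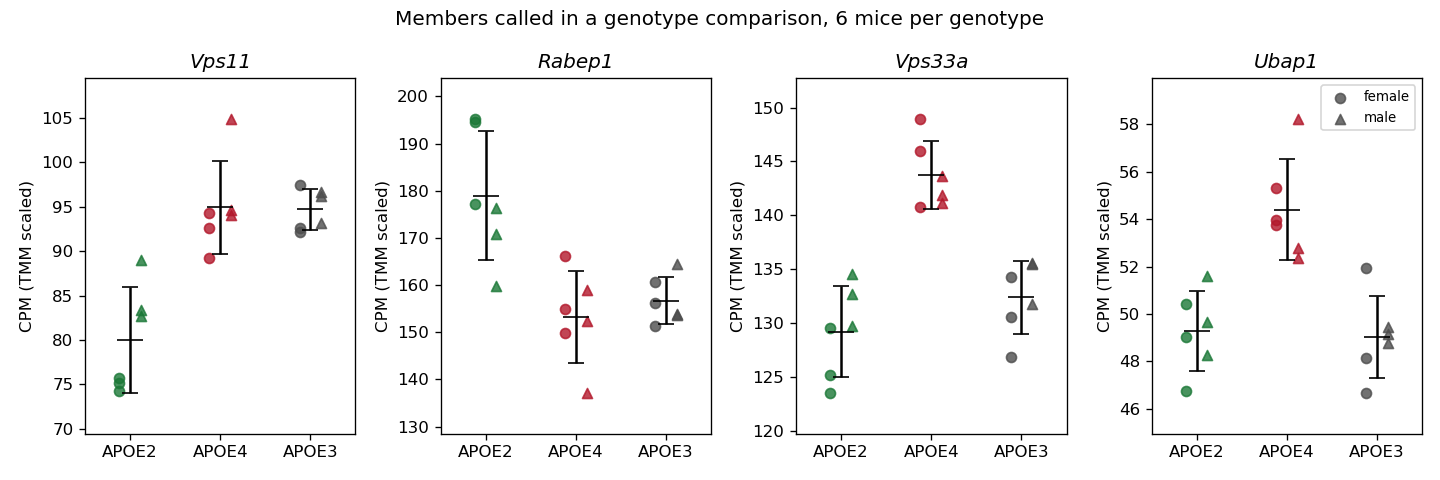
CPM of Vps11, Rabep1, Vps33a and Ubap1 in each mouse of APOE2, APOE4 and APOE3, with circles for females, triangles for males and bars for the mean and SD over 6 mice; the vertical axes do not start at 0. The APOE2 mice lie lowest for Vps11 and mostly highest for Rabep1, and the APOE4 mice lie highest for Vps33a and Ubap1.

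The other Rab5 effectors and PI3P binders gave no call. Rabgef1 averaged 40.9 ± 1.74 CPM in APOE2, 40.4 ± 1.36 CPM in APOE4 and 41.2 ± 2.15 CPM in APOE3. Rabep2, the paralog of Rabep1, had a log2 fold change of -0.13 in APOE2 against APOE3 (SE 0.07, edgeR adjusted p = 0.385). Eea1, the long tether that joins early endosomes, averaged 74.2 ± 7.24 CPM in APOE2, 69.0 ± 8.44 CPM in APOE4 and 70.1 ± 2.20 CPM in APOE3, and Zfyve16, a PI3P-binding endosome protein, averaged 25.3 ± 3.17, 25.5 ± 2.13 and 25.5 ± 1.68 CPM in the same order.

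The APPL adaptors, which mark a Rab5 endosome that precedes Eea1, overlapped between genotypes. Appl1 averaged 138 ± 11.8 CPM in APOE2, 132 ± 14.8 CPM in APOE4 and 128 ± 5.41 CPM in APOE3, and Appl2 averaged 101 ± 8.25, 105 ± 10.1 and 106 ± 6.24 CPM in the same order. The EHD ATPases, which act on recycling tubules, did so too. Ehd1 averaged 43.6 ± 3.38 CPM in APOE2, 42.4 ± 2.65 CPM in APOE4 and 44.2 ± 1.44 CPM in APOE3, and Ehd3 averaged 129 ± 6.49, 131 ± 10.9 and 129.97 ± 7.61 CPM in the same order.

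In females against males, edgeR called 0 of the 51 genes, where 0.132% of all genes were called. DESeq2 and limma voom also called 0 of the 51, and their shares over all genes are not given here. In edgeR, 5 of the set had an unadjusted p under 0.05 (Appl2, Vps11, Chmp5, Ist1 and Chmp6), where 8.46% of all genes had one. For a genotype difference that depended on sex, edgeR called 0 of the 51 in each pair, where it called 0 genes in all in both comparisons of APOE2 and 0.0106% of all genes in APOE4 against APOE3. In APOE2 against APOE3, Vps11 was the 1 gene of the set with an unadjusted interaction p under 0.05 (0.0482, adjusted p = 0.854), where 5.79% of all genes had one. In APOE2 its females had 74.2, 75.7 and 75.1 CPM and its males 82.7, 89.1 and 83.4 CPM. How many of all genes show such a gap between 3 females and 3 males was not counted. Fitted within females alone, the log2 fold change of Vps11 in APOE2 against APOE3 was -0.33 (edgeR adjusted p = 0.00195), and within males alone it was -0.17 (adjusted p = 0.328). For Rabep1 in APOE2 against APOE3 the values were 0.27 within females (adjusted p = 0.0246) and 0.10 within males (adjusted p = 0.755), and its interaction had an unadjusted p of 0.0681. In APOE2 against APOE4, the values within females and within males were -0.30 and -0.20 for Vps11, 0.26 and 0.18 for Rabep1 and -0.21 and -0.10 for Vps33a. None of these was called within males (edgeR adjusted p = 0.207, 0.351 and 0.628), while all 3 were called within females (adjusted p = 0.00417, 0.0235 and 0.0464). The interactions of Vps11, Rabep1 and Vps33a in that comparison had unadjusted edgeR p of 0.237, 0.323 and 0.150, so a difference between the sexes was not shown for any of them. Each fit within a sex rests on 3 mice per genotype. In APOE3 and APOE4 mice the title letters divide the sexes, so the sex and interaction results cannot be told apart from them there. Vps18 and Ehd3 had an unadjusted interaction p under 0.05 in APOE4 against APOE3 (0.0195 and 0.0109, edgeR adjusted p = 0.618 and 0.556), where 6.81% of all genes had one, and in APOE2 against APOE4 (0.0424 and 0.0428), where 2.57% had one.

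Vps11 and Rabep1 lie among many other called genes on their chromosomes. Vps11 lies on chromosome 9 from 44347749 to 44361670 (GRCm38, minus strand). Within 5 Mb of it, 30 of 99 other tested genes were called in APOE2 against APOE3 (30.3%), compared with 3.83% of all tested genes with a position, and 37 of 99 (37.4%) in APOE2 against APOE4, compared with 6.46%. Around Rabep1, on chromosome 11 from 70844778 to 70943105 (plus strand), 26 of 207 genes were called in APOE2 against APOE3 (12.6%) and 31 of 207 in APOE2 against APOE4 (14.98%). The called neighbours went both ways, with 11 higher and 19 lower around Vps11 and 13 each way around Rabep1 in APOE2 against APOE3. Around Ubap1, on chromosome 4 from 41348996 to 41390525 (plus strand), 3 of 104 genes were called in APOE2 against APOE4 (2.88%), and around Vps33a, on chromosome 5 from 123528659 to 123573038 (minus strand), 2 of 143 (1.40%). The set also held uncalled genes in such places: Vps18 and Vps39 on chromosome 2 had 38.1% and 36.4% of their neighbours called in APOE2 against APOE3, and their own log2 fold changes were 0.03 (SE 0.05) and -0.02 (SE 0.04). Snx1, on chromosome 9, had shares close to those of Rabep1, with 12.2% of its neighbours called in APOE2 against APOE3 and 14.4% in APOE2 against APOE4, and its own log2 fold change was 0.03 in both and was not called. The part of these neighbourhoods in the calls of Vps11 and Rabep1 was not tested.

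**Figure D4:**
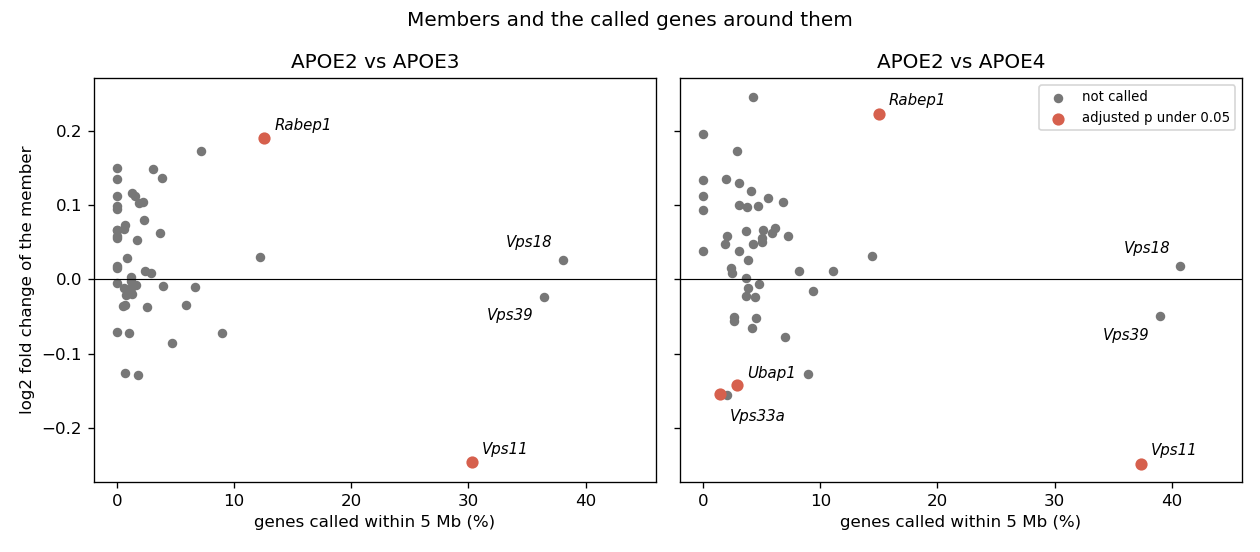
Log2 fold change of each of the 51 genes against the percent of tested genes within 5 Mb that were called in the same comparison, for APOE2 vs APOE3 and APOE2 vs APOE4. Vps11 (30.3% and 37.4%) and Rabep1 (12.6% and 14.98%) have many called neighbours, as do the uncalled Vps18 and Vps39 and, with shares near those of Rabep1, the unlabelled point of Snx1, while Ubap1 and Vps33a have few.

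Partners of these complexes were counted from 6 further lists, which hold 120 tested genes in all. In APOE2 against APOE3, edgeR called 0 of the 120, where 3.91% of all genes were called, and 15 had an unadjusted p under 0.05 (12.5%, against 16.8% of all genes). In APOE4 against APOE3 it called 3 (2.5%, against 0.773% of all genes), of which 1 was higher and 2 were lower in APOE4. For APOE2 against APOE4 it called 6 (5.0%, against 6.53% of all genes), of which 3 were higher and 3 were lower in APOE2. Washc2, the FAM21 subunit that ties the actin-forming WASH complex to Vps35, averaged 126 ± 4.23 CPM in APOE2, 154 ± 2.51 CPM in APOE4 and 129 ± 1.82 CPM in APOE3. It rose in APOE4 against APOE3 (log2 fold change 0.25, SE 0.03, edgeR adjusted p = 5.06e-05) and fell in APOE2 against APOE4 (-0.29, SE 0.03, adjusted p = 1.20e-06). Wdfy1, a PI3P-binding protein of early endosomes, fell in APOE4 against APOE3 by 1.63 on the log2 scale (SE 0.05, adjusted p = 2.64e-16) and rose in APOE2 against APOE4 by 1.67 (SE 0.05, adjusted p = 4.29e-17).

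Arl8a, a GTPase of the lysosome surface, averaged 188 ± 8.64 CPM in APOE2, 167 ± 7.74 CPM in APOE4 and 187 ± 5.38 CPM in APOE3. Its log2 fold change was -0.17 in APOE4 against APOE3 (SE 0.04, edgeR adjusted p = 0.0446) and 0.17 in APOE2 against APOE4 (SE 0.04, adjusted p = 0.00614). Its paralog Arl8b, which recruits HOPS to lysosomes through Vps41, rose in APOE2 against APOE4 (0.15, SE 0.04, adjusted p = 0.0317), where Mon1a, part of the activator that exchanges Rab5 for Rab7, fell (-0.20, SE 0.06, adjusted p = 0.0382). Tom1l2, a ubiquitin-binding adaptor of the TOM1 family, also fell in APOE2 against APOE4, by 0.12 on the log2 scale (SE 0.03, adjusted p = 0.0418).

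In the authors' deposited table, 3 of the 51 genes had an adjusted p under 0.05 in APOE2 against APOE3 (Vps11, Rabep1 and Vps26b), where 4.19% of all genes with an adjusted p did. For APOE2 against APOE4 the authors' deposited table had 5 (Ubap1, Chmp2b, Vps11, Vps33a and Rabep1), where 7.21% of all genes did. The authors' deposited table of the last pair runs APOE3 over APOE4, and it had 2, Ubap1 (log2 fold change -0.14) and Vps33a (-0.11), where 1.25% of all genes did, so both were higher in APOE4.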

How the data were processed

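PolyA RNA of 1 hemibrain from each of 18 mice was sequenced with a stranded single-end kit, per the labels' protocols. The authors deposited unnormalized counts of reads for each gene symbol. The submitters' processing notes name Trimmomatic, STAR 2.7.0, the GRCm38 build, featureCounts and DESeq2, and which strand was counted is not given in the sources used here. Other deposited files used are the authors' DESeq2 tables with a log2 fold change and an adjusted p-value per gene, per the file headers. Of 52459 symbols, 26 read as dates and were removed; they held 0.304% to 0.322% of the counts of a library.

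Counts were fitted with edgeR 4.0.16 (R 4.3.3; TMM scaling, filterByExpr, robust quasi-likelihood, genotype and sex, all 18 libraries), and p-values were adjusted by Benjamini-Hochberg over 18891 genes. The biological coefficient of variation was 0.0845. For the interaction, each genotype and sex had its own mean. TPM used the union of exons in GENCODE M21 (GRCm38), which also gave positions. The edgeR fit of APOE2 against APOE3 was tested on counts simulated with planted changes in APOE2. Other steps were not tested in this way. Near-identical copies were found with blastn 2.17.0 (at least 90% identity over 50% and 200 bases of the copy). Alternatives were DESeq2 1.42.0, limma voom 3.58.1, 1 surrogate variable (sva 3.50.0), other scalings, filters and subsets of mice, counts summed with copies, and each library left out in turn. Replicates were numbered by accession, so a number pairs no mice. The mice are separate animals, but the labels do not give litters.

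The genes of the set, the partner lists and the cell type markers were chosen with earlier results of these data known. One entry of the partner lists is not reported here. The naming rule takes genes called in any test and, per role, those of smallest p in each genotype pair and of highest and lowest TPM, which gives 34 of the 51. Others named were chosen after their values were seen.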

Additional observations from a re-analysis of the deposited data

Results flagged for a closer look

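For each of the 34 named genes, the highest and lowest mouse of every genotype were compared with the others by the gap to the nearest mouse relative to the whole range. Of these 102 groups, 2 held a mouse that stood apart, and chance gives such a mouse in about 1 in 20 groups. Vps11 in APOE4 replicate 4, a male, had 105 CPM, while the other 5 APOE4 mice lay between 89.2 and 94.6 CPM. Vps4b in APOE2 replicate 6, also a male, had 51.9 CPM, while the other 5 APOE2 mice lay between 57.7 and 59.2 CPM. The log2 fold change of Vps11 in APOE2 against APOE4 kept its call without APOE4 replicate 4.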

How the results depend on the processing

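In the genotype pairs where Rabep1, Ubap1, Vps11 and Vps33a were called, their log2 fold changes kept their sign in every alternative run. The number of genes of the set called in APOE2 against APOE3 was 2, and it was 1 at an adjusted p under 0.01, 1 with 1 surrogate variable and 0 in males alone; with each library left out in turn it ran from 1 to 4, where the 4 came without APOE2 replicate 6 and added Chmp2b and Chmp5. In APOE4 against APOE3 it was 0 in edgeR, 2 in DESeq2 and 1 with 1 surrogate variable (Ubap1). In APOE2 against APOE4 it was 4, and 0 in males alone; with each library left out it ran from 3 to 11, where the 11 came without APOE4 replicate 5 and added Chmp2b, Chmp5, Snx2, Vps4b, Vps16, Vps29 and Vps37a. Over all genes the calls in APOE2 against APOE3 were 738, and 449 at an adjusted p under 0.01, 512 with 1 surrogate variable, 456 in females alone and 317 in males alone. In APOE4 against APOE3 they were 146, and 90 at the stricter threshold, 272 in DESeq2, 240 with 1 surrogate variable, 61 in females alone and 56 in males alone. In APOE2 against APOE4 they were 1233, and 677 at the stricter threshold, 542 in females alone and 395 in males alone, with 947 to 1903 when each library was left out, the highest without APOE4 replicate 5. Fits within a sex hold fewer mice. Other causes were not tested. The median level of the set was 67.4 TPM with the union of exons and 71.6 TPM with the longest transcript. Summing counts with near-identical copies changed no call, but none of the 6 genes with a summed copy had been called. A copy of Chmp3 and a copy of Vps4b had no row of counts and could not be summed. Depth limited Vps25, with 25 to 52 reads per library. No paired analysis was possible because the replicate numbers were given in accession order and pair no mice.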
